A study of Mus musculus with 12 samples.

Results

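The genes described here make sterols and fatty acids or control their supply. They were listed by name as genes of the SREBP and LXR pathways, with earlier results of these data known. Their counts and shares beside those of all genes tested are therefore descriptions. The list holds 35 of the 24421 genes in the count table, and all 35 were among the 15220 genes that passed the filter on low counts and were tested. RNA-seq was done on 12 libraries of mouse embryonic fibroblasts (MEFs), 3 in each of 4 groups, to compare how cells with and without the transcription factors TFEB and TFE3 respond to DNA damage. Null MEFs, taken here to be the control line that keeps both factors, and TFEB/TFE3 DKO MEFs, in which both genes had been targeted by CRISPR, were each left untreated or kept in 100 µM etoposide for 8 h. Etoposide is a topoisomerase poison that leaves breaks in both strands of DNA. The sample titles label these libraries Control. They are called untreated here, while the methods of the study give them the solvent DMSO. All cells grew in DMEM with high glucose, pyruvate and fetal bovine serum, and each genotype was 1 immortalized line, so that loss of the factors and other differences between the lines cannot be told apart. Each library had between 45577023 and 104120871 counts on genes. Levels are given in CPM, a gene's count relative to the total of its library after scaling by edgeR's TMM method.

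Cells adjust sterol and fatty acid synthesis through the sterol regulatory element binding proteins (SREBPs), which are made as membrane proteins of the endoplasmic reticulum. When sterols are low, the escort protein SCAP takes SREBPs to the Golgi, where proteases free the part that enters the nucleus and activates the genes of both pathways. When sterols are plentiful, INSIG proteins hold SCAP back, while oxysterols activate the liver X receptors (LXRs), which turn on genes for cholesterol export.

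Tfeb, a targeted gene, was measured at 38.9, 39.2 and 42.1 CPM in untreated Null MEFs and at 4.603, 6.09 and 4.68 CPM in untreated DKO MEFs. After etoposide it was at 11.4, 10.2 and 10.4 CPM in Null MEFs and at 1.92, 1.61 and 2.204 CPM in DKO MEFs. Every DKO library lay below every Null library for Tfeb. Tfe3, the other targeted gene, was at 115, 109.9 and 114 CPM in untreated Null MEFs and 94.1, 93.1 and 90.96 CPM in untreated DKO MEFs. After etoposide it was at 68.5, 69.6 and 68.1 CPM in Null and 70.7, 71.2 and 63.4 CPM in DKO MEFs, and these ranges overlapped. The Tfe3 transcript was thus still counted in DKO MEFs, and counts per gene do not show whether it carries the edit.

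The 9 fibroblast markers examined summed to 7122 ± 59.5 CPM (SD, n = 3) in untreated Null and 11742 ± 322 CPM in untreated DKO MEFs, and to 3991 ± 53.1 and 5195 ± 167 CPM after etoposide. The most abundant was Vim in 3 groups and Fn1 in treated DKO MEFs, where Vim had a mean of 801 and Fn1 of 1531 CPM. Among the 9, Thy1 was near 0 in DKO MEFs, at a mean of 0.0365 CPM without etoposide against 4.21 CPM in Null MEFs. Pdgfra went the other way, with 197 CPM in untreated DKO and 20.9 CPM in untreated Null MEFs. Fat cells are rich in enzymes of fatty acid synthesis, and 6 adipocyte markers summed to 5.72 ± 0.28 CPM in untreated Null, 15.2 ± 0.607 CPM in untreated DKO, 2.92 ± 0.128 CPM in etoposide-treated Null and 8.76 ± 0.858 CPM in etoposide-treated DKO MEFs. The most abundant of them was Pparg in Null and Fabp4 in DKO MEFs. In the same order of groups the means were 4.799, 2.502, 1.82 and 3.2 CPM for Pparg and 0.891, 12.7, 0.636 and 5.13 CPM for Fabp4, and Adipoq and Plin1 were at or near 0 in all 4 groups, with means up to 0.117 and 0.0641 CPM. The summed levels in the 4 groups, in the same order, were 2.599 ± 0.312, 5.35 ± 0.492, 2.49 ± 0.183 and 2.06 ± 0.176 CPM for 4 epithelial markers, with Krt8 highest in untreated cells (means of 1.49 CPM in Null and 4.58 CPM in DKO MEFs) and Cdh1 in treated cells (1.025 and 1.255 CPM). For 3 blood markers, with Cd68 highest in each group, they were 1.47 ± 0.24, 1.58 ± 0.474, 12.4 ± 0.676 and 3.55 ± 0.471 CPM. For 3 endothelial markers, with Pecam1 highest in untreated Null and treated DKO MEFs and Tek in the other 2 groups, they were 0.115 ± 0.0934, 0.092 ± 0.0647, 2.37 ± 0.341 and 0.968 ± 0.425 CPM. For 3 muscle markers, with Des highest in each group, they were 2.11 ± 0.114, 0.386 ± 0.0913, 36.6 ± 2.64 and 2.49 ± 0.147 CPM. For 3 neural markers the sums were 98.9 ± 1.597, 107 ± 3.19, 94.7 ± 2.67 and 73.2 ± 2.35 CPM, made up mostly of Tubb3, with means of 54.9, 14.9, 62.7 and 29.7 CPM, and Map2, with 44.01, 92.5, 31.9 and 43.5 CPM. The share of reads on no annotated feature was 25.1 to 27.3% in Null MEFs with etoposide and 20.2 to 24.2% in the other groups. Rn45s, the precursor of ribosomal RNA, was at 22682, 29275 and 29934 CPM in untreated Null, 21545, 22047 and 18555 CPM in untreated DKO, 40287, 35079.8 and 39512 CPM in treated Null and 29139.8, 33469.7 and 27909 CPM in treated DKO MEFs. The part of these markers, of Rn45s and of the read shares in the results was not tested.

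Etoposide lowered most of the 35 genes in both genotypes. Their summed level was 7041, 6838 and 6985 CPM in untreated Null MEFs and 3089.6, 3089.9 and 3148 CPM after etoposide. In DKO MEFs the sum was 6191, 6125 and 6231 CPM without and 2615, 2616 and 2584 CPM with etoposide. The groups did not overlap. Scd2 had the highest mean of the 35 genes in untreated Null (1276 CPM), untreated DKO (769 CPM) and treated Null MEFs (393 CPM), and Fasn in treated DKO MEFs (256 CPM, with Scd2 at 149 CPM). In bulk samples fewer cells of a type and less RNA per cell cannot be told apart, and CPM values say nothing about the total RNA of a cell.

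**Figure D1:**
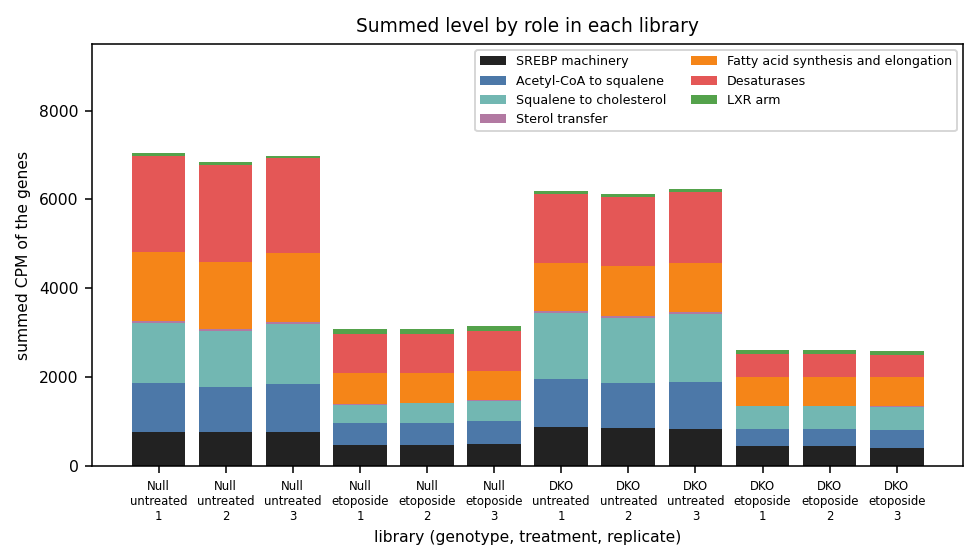
Bars show the summed level (CPM, from 0) of the 35 genes in each of the 12 libraries, stacked by role. The sum lay between 6838.5 and 7041 CPM in untreated Null and between 6125 and 6231 CPM in untreated DKO libraries, and at 3148 CPM or less in every library with etoposide.

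In Null MEFs 27 of the 35 genes (77.1%) were lower after etoposide at an adjusted p under 0.05, where 36.8% of all genes tested were lower by the quasi-likelihood test of edgeR, adjusted after Benjamini and Hochberg over all genes tested. The 5 genes that were higher, against 41.7% of all genes tested, were Scap, Nr1h2, Abca1, Abcg1 and Mylip. The median log2 fold change was -0.87 for the 35 genes and 0.07 for all genes tested, and 16 of the 35 (45.7%, against 8.07% of all genes tested) were called and at least 2-fold lower. In DKO MEFs 29 genes were lower (82.9%, against 31.3% of all genes tested) and 5 were higher (against 44.0%), namely Scap, Mvd, Nr1h2, Abca1 and Abcg1, a number that was 3 when only the 6 libraries compared were fitted. The DKO call of Abcg1 rests on 3 counts in untreated and 25 in treated libraries. The filter kept this gene through its Null libraries, and it was not tested with only the 6 DKO libraries. The median was -1.02 for the 35 genes and 0.14 for all genes tested, with 20 genes (57.1%, against 7.9%) called and at least 2-fold lower. The same 27 genes were lower in both genotypes (77.1%, against 24.1% of all genes tested), 4 were higher in both (Scap, Nr1h2, Abca1 and, on few counts in DKO MEFs, Abcg1, 11.4% against 30.4%), and none was called in opposite directions (against 8.84%). These comparisons share no libraries. For every one of the 35 genes called with etoposide, the 3 treated and the 3 untreated libraries of the genotype did not overlap, as for 97.6% of all genes called in Null and 96.1% in DKO MEFs.

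Between the genotypes the genes split. Without etoposide 14 were higher in DKO than in Null MEFs (against 33.4% of all genes tested) and 18 were lower (against 34.1%), with a median log2 fold change of -0.14 beside -0.02 for all genes tested. After etoposide 9 were higher in DKO MEFs (against 36.9%) and 20 were lower (against 35.2%), with medians of -0.12 and -0.0039. The lower genes of both comparisons include Abcg1, which has few counts in DKO MEFs and passed the filter through its Null libraries. The interaction, the response of DKO MEFs minus that of Null MEFs, was above 0 for 10 genes (against 29.9%) and below 0 for 18 (against 24.7%), with medians of -0.18 and 0.05. Of the 27 genes that fell in both genotypes, 12 fell further in DKO MEFs by this test, 9 fell less, and 6 did not pass the threshold for a difference (44.4, 33.3 and 22.2%). Of the 3671 genes tested that fell in both genotypes, these shares were 24.1, 40.5 and 35.4%. The 10 and 18 genes became 4 and 20 with DESeq2's size factors, in edgeR as in DESeq2, and 6 and 20 with the stricter filter on low counts, and without replicate 2 of untreated DKO MEFs the first number was 5. The comparisons between genotypes use the same libraries as those of etoposide, and each gene's values are therefore set side by side.

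Over all genes tested, the split of higher and lower calls moved when libraries were scaled by size alone. It went from 6342 higher and 5598 lower to 7656 and 4350 for etoposide in Null MEFs, and from 6702 and 4757 to 9351 and 2975 for etoposide in DKO MEFs. For DKO against Null MEFs without etoposide it went from 5080 and 5183 to 3997 and 6473, after etoposide from 5612 and 5351 to 5451 and 5477, and for the interaction from 4553 and 3757 to 5782 and 3110. With that scaling the median over all genes moved on the log2 scale by 0.17, 0.27, -0.12, -0.02 and 0.11 in these 5 comparisons. Other settings turned the majority too. For the interaction, 3862 were higher and 4236 lower with DESeq2's size factors in edgeR, 3937 and 4371 with DESeq2, and 3801 and 3865 with the stricter filter. After etoposide, DKO against Null MEFs gave 4991 and 5866 with DESeq2's size factors, 5002 and 5818 with DESeq2, and 5381 and 5529 without a filter, and the untreated comparison 4632 and 4549 with the stricter filter. Changes are given relative to the TMM scaling. Nothing in the sources says that the replicates of a group came from separate cultures, so the p-values measure the spread between these libraries, and with 3 libraries against 3 the smallest p of an exact permutation test is 0.1.

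**Figure D2:**
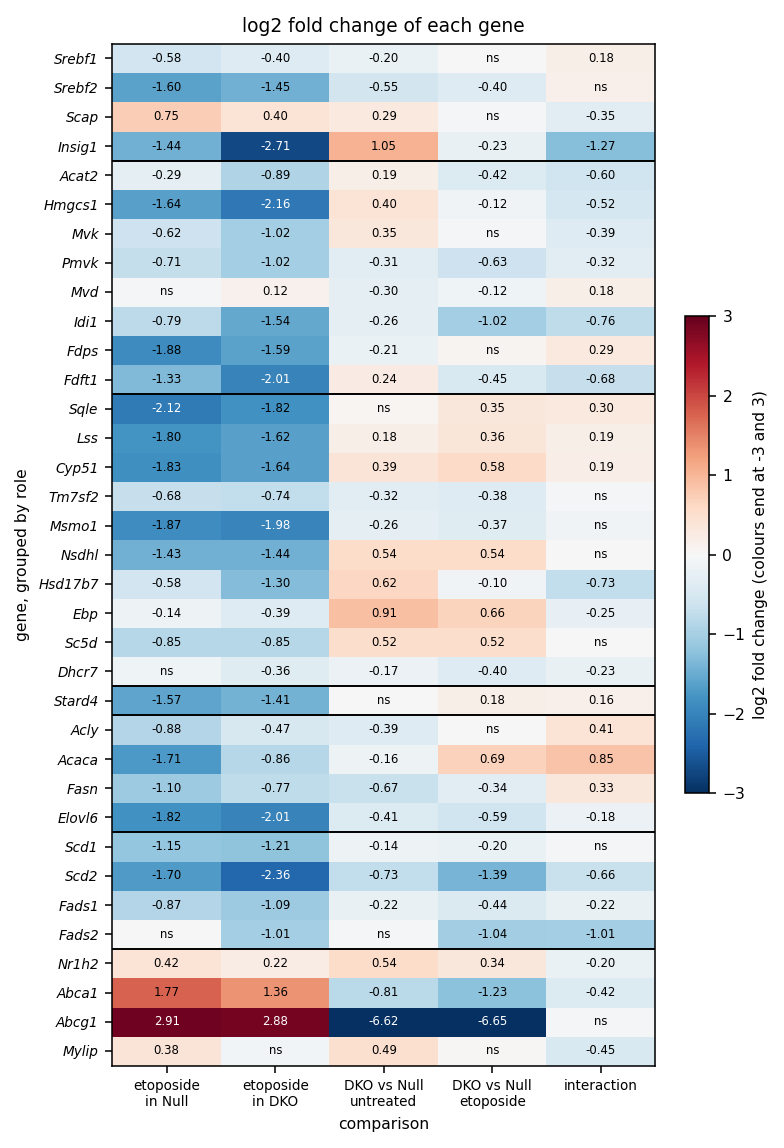
Each cell gives the log2 fold change of 1 of the 35 genes, ordered by role, in 1 of the 5 comparisons, with colours ending at -3 and 3 and "ns" where the adjusted p was not under 0.05. Most genes are below 0 in both etoposide columns, with medians of -0.87 in Null and -1.02 in DKO MEFs, while the LXR genes at the bottom and Scap near the top are above 0 in Null MEFs, and the DKO values of Abcg1 rest on few counts.

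Of the 4 genes of the SREBP machinery, 3 were lower and 1 was higher with etoposide in each genotype, beside 36.8% of all genes tested lower and 41.7% higher in Null MEFs and 31.3% lower and 44.0% higher in DKO MEFs. Srebf2, which encodes the SREBP that mainly serves sterol genes, was at 298, 309.7 and 304 CPM in untreated Null MEFs and at 102, 98.3 and 101 CPM after etoposide. The DKO libraries had 207, 214 and 203 CPM without and 79.1, 82.8 and 67.2 CPM with etoposide. The 4 groups were apart, with untreated Null highest and treated DKO lowest. It was 3.03-fold lower after etoposide in Null MEFs, a log2 fold change of -1.597 ± 0.06 (SE, edgeR adjusted p = 1.10e-13). In DKO MEFs the log2 fold change was -1.45 ± 0.06 (SE, edgeR adjusted p = 6.19e-13). Untreated DKO MEFs had less Srebf2 than untreated Null MEFs, with a log2 fold change of -0.55 ± 0.06 (SE, edgeR adjusted p = 1.73e-07), and so did treated ones, with -0.40 ± 0.06 (adjusted p = 8.22e-06). The interaction of 0.15 did not pass the threshold (adjusted p = 0.124). It passed with library size alone, at 0.26, and without replicate 3 of treated DKO MEFs, at 0.23.

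Srebf1, whose products mainly serve fatty acid genes, was at 158, 161 and 179 CPM in untreated Null MEFs and 113, 109 and 112 CPM after etoposide. In DKO MEFs the values were 147, 147 and 139.6 CPM and, after etoposide, 114, 110.3 and 105 CPM. Untreated libraries were high and treated ones low in each genotype, and the treated libraries of the genotypes overlapped. With etoposide the log2 fold change was -0.58 ± 0.05 (SE, edgeR adjusted p = 5.29e-09) in Null MEFs and -0.40 ± 0.05 (adjusted p = 9.09e-07) in DKO MEFs. Without etoposide DKO MEFs were 1.15-fold lower than Null MEFs (adjusted p = 8.98e-04), and the difference after etoposide, -0.02, did not pass the threshold (adjusted p = 0.695). The interaction of 0.18 ± 0.07 (adjusted p = 0.0265) missed the threshold under 10 of 19 alternative settings (values 0.12 to 0.29, adjusted p up to 0.147). Srebf1 shares 1.94% of its exon length with Rai1 on the opposite strand, and the strand setting of the counting is not given.

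Scap, the escort of both SREBPs, moved the other way. It was at 116, 118 and 124 CPM in untreated Null MEFs and 199.7, 196 and 206 CPM after etoposide, and at 148, 146 and 144 CPM in untreated DKO MEFs and 191, 198 and 189 CPM after etoposide. All 6 treated libraries lay above all 6 untreated ones. Scap was 1.68-fold higher with etoposide in Null MEFs, a log2 fold change of 0.75 ± 0.04 (SE, edgeR adjusted p = 6.75e-12), and 1.32-fold higher in DKO MEFs (log2 fold change 0.40 ± 0.04, adjusted p = 3.81e-08). The rise was smaller in DKO MEFs, with an interaction of -0.35 ± 0.05 (SE, edgeR adjusted p = 2.28e-05), and the untreated level was higher there (log2 fold change 0.29 ± 0.04, adjusted p = 2.40e-06). After etoposide the genotypes overlapped, with a log2 fold change of -0.06 (adjusted p = 0.144) that passed the threshold with DESeq2's size factors, with DESeq2, with the stricter filter and without replicate 2 of treated DKO MEFs (-0.0975). Scap shares 13.2% of its exon length with the transcript 5830462I19Rik on the opposite strand.

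Insig1, which retains SCAP in the endoplasmic reticulum and is itself a target of SREBPs, had the largest fall of the 35 genes in DKO MEFs and the largest interaction below 0. It was at 184, 167 and 167 CPM in untreated Null MEFs and 59.6, 63.98 and 67.9 CPM after etoposide. Its levels in DKO MEFs were 367, 356 and 351 CPM without and 59.1, 51.1 and 53.8 CPM with etoposide. The untreated DKO libraries stood above all others, while the treated libraries of the genotypes lay close, with all 3 DKO values under all 3 Null values. The fall was 2.71-fold in Null MEFs (log2 fold change -1.44 ± 0.06, adjusted p = 4.03e-13) and 6.56-fold in DKO MEFs (log2 fold change -2.71 ± 0.06 SE, edgeR adjusted p = 3.12e-16). The interaction was -1.27 ± 0.08 (SE, edgeR adjusted p = 9.48e-10). Of this difference, most lay in the starting level, which was 2.07-fold higher in untreated DKO MEFs (log2 fold change 1.05 ± 0.06, adjusted p = 4.01e-11), while after etoposide the log2 fold change between the genotypes was -0.23 ± 0.06 (adjusted p = 0.00201).

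Since most of the genes fell together, their promoters were searched for shared letters, in windows of 300 bases (250 before and 50 after the start of transcription) that RefSeq gives on build GRCm38.p6. Of the 35 genes, 27 are in the table, with 33 windows, and Fdps, Fdft1, Sqle, Stard4, Scd1, Scd2, Fads1 and Abcg1 are not. The letters searched, on both strands, were TCACNCCAC for the core of a sterol response element, CACGTG for the E-box, TCACGTGA for the CLEAR element bound by TFEB and TFE3, which contains an E-box, and CCAAT for the NF-Y box. The sterol response core was found in 1 of the 27 genes (3.70%), Hmgcs1, and in 1.44% of the 27025 genes in the table. The E-box was in 6 of the 27 (22.2%), namely Scap, Insig1, Hsd17b7, Sc5d, Dhcr7 and Abca1, and in 8.09% of all genes. The CLEAR letters were in 0 of the 27 and in 1.12% of all genes. The NF-Y box was in 20 of the 27 (74.1%) and in 41.1% of all genes. A match describes the letters in these windows, was not tested for binding or function, and its absence says only that the letters are not there. The 5 promoters shown belong to those genes in the table that are given here in every library and had the largest fold changes with etoposide or interactions among these. They are in lower case with matches in capitals (CCAAT, or ATTGG on the other strand, CACGTG and TCACCCCAC). They lie at chr5:28071162-28071461 on the plus strand (Insig1), chr13:119690101-119690400 on the plus strand (Hmgcs1), chr8:64733529-64733828 on the minus strand (Msmo1), chr5:4104648-4104947 on the minus strand (Cyp51) and chr4:53159846-53160145 on the minus strand (Abca1), and each is written in the direction of transcription.
Insig1: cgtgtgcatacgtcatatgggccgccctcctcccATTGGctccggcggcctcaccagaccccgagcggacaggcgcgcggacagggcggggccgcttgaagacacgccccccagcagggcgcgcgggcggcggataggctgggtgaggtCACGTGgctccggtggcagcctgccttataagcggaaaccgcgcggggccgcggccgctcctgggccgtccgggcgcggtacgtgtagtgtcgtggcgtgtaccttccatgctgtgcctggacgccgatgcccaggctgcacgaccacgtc
Hmgcs1: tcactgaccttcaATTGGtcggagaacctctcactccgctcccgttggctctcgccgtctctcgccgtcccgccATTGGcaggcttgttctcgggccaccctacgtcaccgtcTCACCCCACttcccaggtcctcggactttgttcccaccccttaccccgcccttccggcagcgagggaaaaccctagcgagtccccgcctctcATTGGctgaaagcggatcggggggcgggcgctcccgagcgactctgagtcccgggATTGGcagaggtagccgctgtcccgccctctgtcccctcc
Msmo1: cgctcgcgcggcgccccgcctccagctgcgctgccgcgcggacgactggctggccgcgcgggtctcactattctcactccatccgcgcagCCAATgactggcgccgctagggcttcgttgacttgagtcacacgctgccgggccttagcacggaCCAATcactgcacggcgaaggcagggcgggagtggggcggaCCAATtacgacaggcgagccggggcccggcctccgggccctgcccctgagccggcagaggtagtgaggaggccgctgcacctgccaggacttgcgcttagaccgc
Cyp51: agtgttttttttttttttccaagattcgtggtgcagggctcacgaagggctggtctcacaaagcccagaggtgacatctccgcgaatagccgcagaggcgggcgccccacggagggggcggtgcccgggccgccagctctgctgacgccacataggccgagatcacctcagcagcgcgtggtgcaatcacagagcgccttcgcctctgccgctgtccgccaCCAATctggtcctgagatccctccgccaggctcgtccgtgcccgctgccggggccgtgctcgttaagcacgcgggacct
Abca1: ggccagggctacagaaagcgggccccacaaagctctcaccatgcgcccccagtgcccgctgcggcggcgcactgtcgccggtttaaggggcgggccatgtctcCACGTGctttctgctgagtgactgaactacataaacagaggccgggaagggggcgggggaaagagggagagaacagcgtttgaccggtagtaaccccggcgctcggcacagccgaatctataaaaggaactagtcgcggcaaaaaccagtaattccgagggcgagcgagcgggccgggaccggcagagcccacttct

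**Figure D3:**
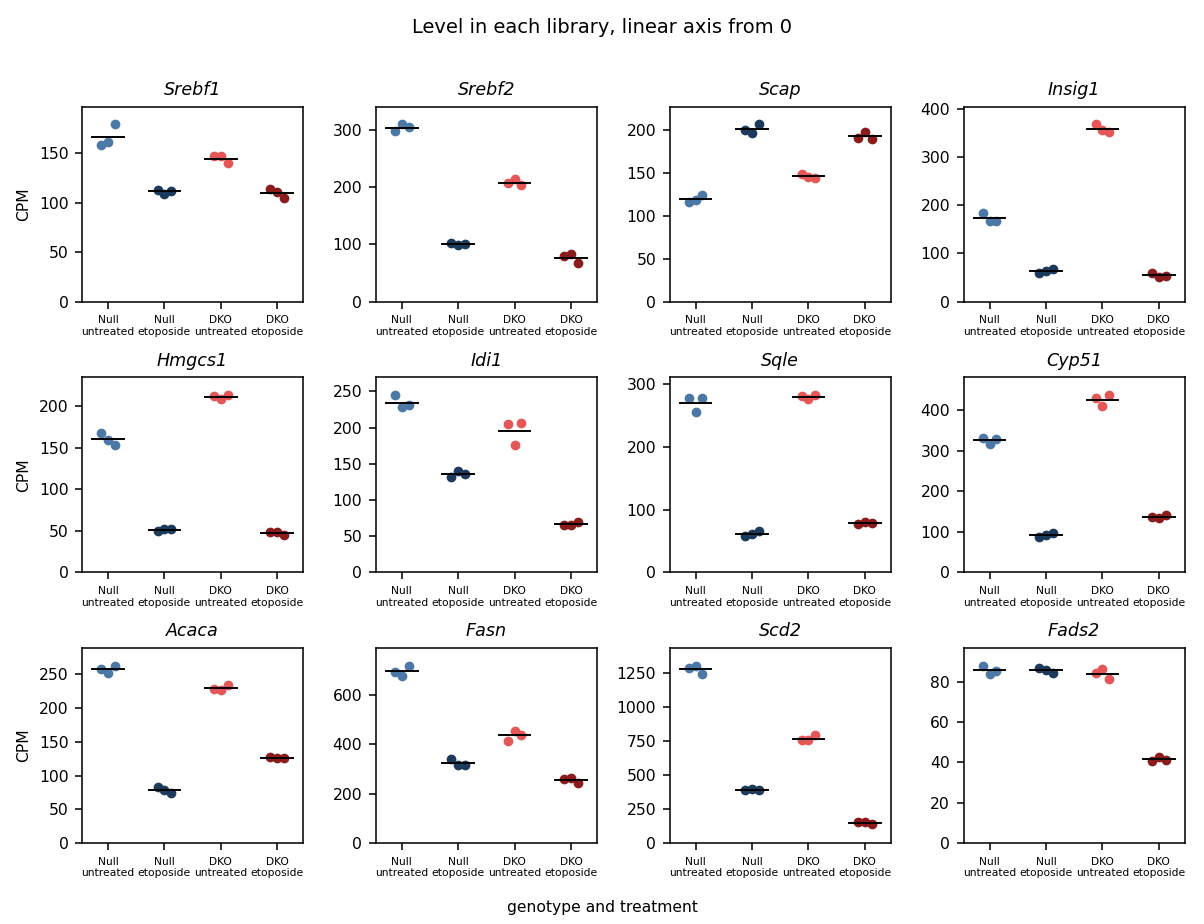
Points are the levels (CPM, axis from 0) of 12 of the genes in the 3 libraries of each group, and lines mark the group means. Insig1 stands out with untreated DKO libraries at 351 to 367 CPM, above the 167 to 184 CPM of untreated Null MEFs, while Scap is higher in treated than in untreated libraries.

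The 8 genes from acetyl-CoA to squalene, the shared first stretch of the sterol pathway, summed to 1068 ± 46.5 CPM (SD, n = 3) in untreated Null and 1053 ± 33.9 CPM in untreated DKO MEFs. After etoposide the sums were 506 ± 21.3 and 388 ± 7.58 CPM. In each genotype 7 of the 8 were lower with etoposide (against 36.8% of all genes tested in Null and 31.3% in DKO MEFs), with a median log2 fold change of -0.75 in Null and -1.28 in DKO MEFs, beside 0.07 and 0.14 for all genes tested. Hmgcs1, the synthase that makes HMG-CoA, was at 168, 159.9 and 153 CPM in untreated Null MEFs and 50.4, 52.1 and 52.2 CPM after etoposide. DKO MEFs gave values of 213, 209 and 214 CPM without and 48.8, 48.9 and 45.04 CPM with etoposide. As for Insig1, the untreated DKO libraries were highest and the treated DKO libraries lowest, with no overlap between groups. The log2 fold change was -1.64 ± 0.04 (SE, edgeR adjusted p = 1.94e-15) in Null and -2.16 ± 0.04 (adjusted p = 1.03e-16) in DKO MEFs, with an interaction of -0.52 ± 0.06 (adjusted p = 1.13e-06). The promoter of Hmgcs1, printed above, holds the sterol response core and 4 NF-Y boxes. The small difference between the genotypes after etoposide, -0.12 ± 0.04 (adjusted p = 0.02), missed the threshold under 3 of 14 alternatives (values -0.18 to -0.09, adjusted p up to 0.068). A noncoding gene on the opposite strand, Gm48342, covers 12.1% of its exon length.

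Idi1, the isomerase that makes the allylic building block of isoprenoids, was at 245, 228 and 231 CPM in untreated and 132, 139.7 and 136 CPM in treated Null MEFs. In DKO MEFs it was at 205, 176 and 207 CPM and, with etoposide, 66.03, 65.97 and 69.1 CPM. The treated DKO libraries were the lowest, well under the treated Null libraries. Idi1 fell 1.73-fold in Null MEFs and 2.92-fold in DKO MEFs, with log2 fold changes of -0.79 ± 0.05 (adjusted p = 4.71e-10) and -1.54 ± 0.05 (adjusted p = 1.24e-13). The interaction was -0.76 ± 0.07 (adjusted p = 2.40e-07), and the genotypes differed by -0.26 before and -1.02 after etoposide on the log2 scale (adjusted p = 2.99e-04 and 2.96e-11). Gm48574 on the opposite strand shares 9.22% of its exon length.

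Fdps, the synthase of farnesyl diphosphate, was at 334, 278 and 342 CPM in untreated Null MEFs and 82.4, 82.8 and 94.4 CPM after etoposide, and at 281, 273 and 271 CPM without and 89.4, 86.6 and 96.96 CPM with etoposide in DKO MEFs. Treated libraries were low in both genotypes, and the genotypes overlapped with and without etoposide. The fall was 3.68-fold in Null MEFs (log2 fold change -1.88 ± 0.07 SE, edgeR adjusted p = 2.18e-13) and 3.02-fold in DKO MEFs (log2 fold change -1.59 ± 0.07, adjusted p = 2.64e-12). Fdps was called lower in untreated DKO MEFs, at -0.21 ± 0.07 (adjusted p = 0.012), although the libraries overlapped, the only such case among the 35 genes (97.2% of all genes called did not overlap), and the call was lost without replicate 3 of untreated Null MEFs (-0.16). Its interaction of 0.29 ± 0.10 (adjusted p = 0.0205) missed the threshold under 10 of 19 alternatives (values 0.22 to 0.39, adjusted p up to 0.117). Gm43738, annotated on the same strand, shares 26.7% of its exon length.

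Fdft1, squalene synthase, was at 105, 103 and 105 CPM in untreated Null MEFs and 39.8, 40.4 and 44.7 CPM after etoposide. The DKO libraries had 126, 119 and 124 CPM without and 31.3, 30.8 and 29.6 CPM with etoposide. No groups overlapped, and DKO MEFs had the higher untreated and the lower treated levels. The log2 fold change was -1.33 ± 0.04 (SE, edgeR adjusted p = 3.14e-14) in Null MEFs, -2.01 ± 0.04 (adjusted p = 3.37e-16) in DKO MEFs and -0.68 ± 0.06 (adjusted p = 6.69e-08) for the interaction. Between the genotypes it was 0.24 ± 0.04 (adjusted p = 8.64e-05) without and -0.45 ± 0.04 (adjusted p = 9.65e-08) with etoposide. Ctsb, a cathepsin gene on the opposite strand, overlaps 18.3% of its exon length.

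Of the other genes of this stretch, Acat2 (cytosolic thiolase), Mvk (mevalonate kinase) and Pmvk (phosphomevalonate kinase) fell in both genotypes and fell further in DKO MEFs, with interactions of -0.60, -0.39 and -0.32. Their group means in Null MEFs were 85.3, 34.9 and 77.95 CPM without and 69.8, 22.7 and 47.8 CPM with etoposide. In DKO MEFs they were 97.1, 44.4 and 63.0 CPM without and 52.2, 21.9 and 30.97 CPM with etoposide. Mvd, the decarboxylase that follows them, was not called lower with etoposide in either genotype. Its means were 52.6 and 50.5 CPM in Null MEFs without and with etoposide, a difference not past the threshold, and 42.7 and 46.4 CPM in DKO MEFs. The rise in DKO MEFs, 0.12 ± 0.05 (adjusted p = 0.0414), missed the threshold under 9 of 14 alternatives (values 0.07 to 0.40, adjusted p up to 0.277), and the interaction of 0.18 ± 0.07 (adjusted p = 0.0428) under 13 of 19 (values 0.12 to 0.29, adjusted p up to 0.207).

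The 10 genes that turn squalene into cholesterol summed to 1321 ± 41.4 CPM (SD, n = 3) in untreated Null and 1488 ± 32.3 CPM in untreated DKO MEFs, and to 438 ± 18.2 and 521 ± 6.67 CPM after etoposide. With etoposide 9 of the 10 were lower in Null MEFs (against 36.8% of all genes tested) and all 10 in DKO MEFs (against 31.3%), where the call of Dhcr7 was lost with library size alone (-0.08). Without etoposide 6 of the 10 were higher in DKO than in Null MEFs (against 33.4%) and 3 were lower (against 34.1%), with a median log2 fold change of 0.28 beside -0.02 for all genes tested. After etoposide 6 were higher (against 36.9%) and 4 lower (against 35.2%), with medians of 0.36 and -0.0039. Lss, Cyp51, Nsdhl, Ebp and Sc5d were higher in DKO MEFs at both conditions. Sqle, squalene epoxidase and a rate-limiting enzyme, was at 278, 255 and 277 CPM in untreated Null MEFs and 57.9, 61.5 and 66.4 CPM after etoposide. Its levels in DKO MEFs were 280.4, 276 and 282 CPM without and 76.7, 80.9 and 79.3 CPM with etoposide. Untreated libraries of the genotypes overlapped, and treated DKO libraries lay above treated Null libraries. Sqle had the largest fall of the 35 genes in Null MEFs, 4.36-fold (log2 fold change -2.12 ± 0.05 SE, edgeR adjusted p = 5.06e-16), and fell less in DKO MEFs (log2 fold change -1.82 ± 0.05, adjusted p = 3.50e-15), with an interaction of 0.30 ± 0.07 (adjusted p = 0.00103). After etoposide it was 1.28-fold higher in DKO MEFs (adjusted p = 4.54e-06).

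Cyp51, the demethylase of lanosterol, was at 331, 316 and 329.7 CPM in untreated Null MEFs and 87.2, 91.2 and 96.7 CPM after etoposide. In DKO MEFs the levels were 430.1, 409 and 437 CPM without and 135, 133 and 141 CPM with etoposide. The 4 groups were apart, and DKO libraries were higher at both conditions. With etoposide the log2 fold change was -1.83 ± 0.04 (SE, edgeR adjusted p = 6.82e-16) in Null and -1.64 ± 0.04 (adjusted p = 3.03e-15) in DKO MEFs, and between the genotypes it was 0.39 ± 0.04 (adjusted p = 3.58e-07) without and 0.58 ± 0.04 (adjusted p = 2.22e-09) with etoposide. The interaction of 0.19 ± 0.06 (adjusted p = 0.012) missed the threshold under 3 of 19 alternatives (values 0.13 to 0.30, adjusted p up to 0.085). One of these was the fit without replicate 2 of untreated DKO MEFs (0.15). Akap9 shares 3.76% of its exon length on the opposite strand.

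Msmo1, a methylsterol oxidase that acts later, was at 390.3, 365 and 382 CPM in untreated and 100.4, 106 and 105 CPM in treated Null MEFs, and at 319, 308 and 325 CPM without and 82.4, 77.1 and 80.9 CPM with etoposide in DKO MEFs. DKO libraries were lower than Null libraries at both conditions. Msmo1 fell 3.65-fold in Null (log2 fold change -1.87 ± 0.04 SE, edgeR adjusted p = 2.13e-16) and 3.96-fold in DKO MEFs (log2 fold change -1.98 ± 0.04, adjusted p = 1.26e-16), and the interaction did not pass the threshold. Its promoter, printed above, holds 3 NF-Y boxes and that of Cyp51 holds 1.

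Nsdhl, a dehydrogenase that helps remove the methyl groups, was at 44.3, 42.8 and 41.6 CPM in untreated Null MEFs and 14.9, 17.01 and 15.7 CPM after etoposide. DKO MEFs gave values of 62.6, 59.7 and 65.1 CPM without and 22.8, 22.7 and 23.7 CPM with etoposide. DKO libraries were higher at both conditions, by a log2 fold change of 0.54 ± 0.05 (adjusted p = 4.03e-08) without and 0.54 ± 0.05 (adjusted p = 8.63e-08) with etoposide. It fell 2.704-fold in Null and 2.705-fold in DKO MEFs (adjusted p = 1.32e-13 and 1.46e-13).

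Hsd17b7, the ketosterol reductase of the same step, was at 48.2, 46.3 and 46.9 CPM in untreated Null MEFs and 29.96, 31.3 and 33.6 CPM after etoposide, and at 74.3, 73.6 and 69.9 CPM without and 28.7, 29.7 and 29.8 CPM with etoposide in DKO MEFs. Untreated DKO libraries were the highest, and after etoposide the DKO libraries lay just below the Null libraries. The log2 fold change was -0.58 ± 0.04 (SE, edgeR adjusted p = 2.76e-09) in Null and -1.303 ± 0.04 (adjusted p = 8.21e-14) in DKO MEFs, with an interaction of -0.73 ± 0.06 (adjusted p = 4.23e-08). The difference after etoposide, -0.10 ± 0.04 (adjusted p = 0.0475), missed the threshold under 6 of 14 alternatives (values -0.17 to -0.05, adjusted p up to 0.285), while the untreated difference was 0.62 ± 0.04 (adjusted p = 1.25e-09).

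Ebp, the sterol isomerase, was at 36.4, 36.8 and 36.5 CPM in untreated Null MEFs and 31.99, 31.8 and 35.5 CPM after etoposide. In DKO MEFs it was at 70.4, 67.7 and 67.9 CPM without and 51.1, 52.3 and 53.3 CPM with etoposide. All DKO libraries stood above all Null libraries. Ebp was 1.88-fold higher in untreated DKO MEFs (log2 fold change 0.91 ± 0.04 SE, edgeR adjusted p = 7.19e-12) and 1.58-fold higher after etoposide (log2 fold change 0.66 ± 0.04, adjusted p = 4.22e-10). The effect of etoposide was small in Null MEFs, -0.14 ± 0.04 (adjusted p = 0.00592), where the sign turned to 0.02 with library size alone and the call was lost with DESeq2 and the stricter filter, and larger in DKO MEFs, -0.39 ± 0.04 (adjusted p = 2.65e-07), with an interaction of -0.25 ± 0.06 (adjusted p = 0.00208).

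The other genes of this stretch are Lss (lanosterol synthase), Tm7sf2 and Dhcr7 (sterol reductases) and Sc5d (a sterol desaturase). Their log2 fold changes with etoposide ranged in DKO MEFs from -1.62 for Lss to -0.36 for Dhcr7. In Null MEFs those of Lss, Sc5d and Tm7sf2 were -1.804, -0.85 and -0.68, while Dhcr7, with means of 20.5 and 18.8 CPM, did not pass the threshold. Lss and Sc5d were higher in DKO than in Null MEFs at both conditions, and Tm7sf2 and Dhcr7 were lower at both. Without etoposide the call was lost for Lss with library size alone (0.06) and for Dhcr7 without replicate 1 or 3 of either untreated group (-0.16 to -0.12). The interaction of Dhcr7, -0.23 ± 0.09 (adjusted p = 0.0424), missed the threshold under 9 of 19 alternatives (values -0.30 to -0.13, adjusted p up to 0.261), and that of Lss, 0.19 ± 0.06 (adjusted p = 0.0108), with DESeq2 and with its size factors in edgeR. Vps51 shares 12.1% of the exon length of Tm7sf2 on the same strand. Stard4, a soluble carrier that moves sterols between membranes, had means of 47.3 and 48.02 CPM in untreated Null and DKO MEFs and of 15.9 and 18.05 CPM after etoposide. It fell 2.97-fold in Null and 2.66-fold in DKO MEFs, and the interaction of 0.16 ± 0.06 (adjusted p = 0.0297) missed the threshold under 11 of 19 alternatives (values 0.09 to 0.26, adjusted p up to 0.257).

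The 4 genes of fatty acid synthesis and elongation were lower in DKO MEFs before etoposide and fell with it. They summed to 1548, 1496 and 1559 CPM in untreated Null and 1076, 1132 and 1116 CPM in untreated DKO MEFs, and after etoposide to 697, 665 and 663 CPM in Null and 648, 642 and 639 CPM in DKO MEFs. All 4 were lower in untreated DKO than in untreated Null MEFs, with a median log2 fold change of -0.40 beside -0.02 for all genes tested, of which 34.1% were lower. All 4 fell with etoposide in both genotypes (against 36.8% in Null and 31.3% in DKO MEFs). Acly, which makes cytosolic acetyl-CoA from citrate, was at 425, 406 and 417 CPM in untreated Null MEFs and 226, 224 and 228 CPM after etoposide. The DKO libraries had 309.8, 323 and 319 and, with etoposide, 228, 221 and 238 CPM. The treated libraries of the genotypes overlapped, while untreated DKO libraries lay under untreated Null libraries. The log2 fold change with etoposide was -0.88 ± 0.03 (SE, edgeR adjusted p = 3.55e-13) in Null and -0.47 ± 0.03 (adjusted p = 2.22e-09) in DKO MEFs, with an interaction of 0.41 ± 0.05 (adjusted p = 1.89e-06), and the untreated genotypes differed by -0.39 ± 0.03 (adjusted p = 2.56e-08).

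Acaca, the carboxylase that commits acetyl-CoA to fatty acids, had the largest interaction above 0. It was at 259, 252 and 263 CPM in untreated Null MEFs and 82.9, 79.2 and 74.03 CPM after etoposide. Its levels in DKO MEFs were 229, 228 and 235 CPM without and 128, 127 and 126 CPM with etoposide. Untreated DKO libraries were under untreated Null libraries, and treated DKO libraries were above treated Null libraries. Acaca fell 3.27-fold in Null MEFs (log2 fold change -1.71 ± 0.04 SE, edgeR adjusted p = 6.40e-16) and 1.82-fold in DKO MEFs (log2 fold change -0.86 ± 0.04, adjusted p = 4.14e-12), and the interaction was 0.85 ± 0.06 (SE, edgeR adjusted p = 1.60e-09). It was the only one of the 35 genes that was lower in DKO MEFs without etoposide (log2 fold change -0.16 ± 0.04, adjusted p = 0.00137) and higher in them after it (log2 fold change 0.69 ± 0.04, adjusted p = 9.08e-11). The longest of the 35 genes is Acaca, with a span of 272 kb, against a median of 17.9 kb and a shortest span of 4.34 kb for Nr1h2. Across the 35 genes the rank correlation of span with the log2 fold change with etoposide was 0.0291 in Null and 0.131 in DKO MEFs, beside -0.164 and -0.143 over 14642 genes, a description in which genes are not independent replicates.

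Fasn, the synthase of palmitate, was at 692, 675 and 716 CPM in untreated Null MEFs and 340.1, 315 and 316 CPM after etoposide, and at 414, 454 and 438 CPM without and 259.9, 263 and 244 CPM with etoposide in DKO MEFs. DKO libraries were lower than Null libraries at both conditions. The difference was 1.595-fold without etoposide (log2 fold change -0.67 ± 0.04 SE, edgeR adjusted p = 4.00e-10) and 1.27-fold with it (log2 fold change -0.34 ± 0.04, adjusted p = 1.83e-06). Etoposide lowered Fasn by a log2 fold change of -1.101 in Null and -0.77 in DKO MEFs (adjusted p = 3.51e-13 and 6.17e-11), with an interaction of 0.33 ± 0.06 (adjusted p = 1.76e-04). Elovl6, which elongates palmitate, fell from a mean of 166 ± 5.55 to 46.9 ± 1.62 CPM in Null MEFs and from 125 ± 1.69 to 31.2 ± 0.714 CPM in DKO MEFs (SD, n = 3 each), log2 fold changes of -1.82 and -2.01. Its interaction of -0.18 ± 0.05 (adjusted p = 0.00719) missed the threshold with library size alone, at -0.08.

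The 4 desaturases were lower in treated DKO than in treated Null MEFs in every case, where 35.2% of all genes tested were lower, with a median log2 fold change of -0.74 beside -0.0039 for all genes tested. Scd2, which puts a first double bond into saturated fatty acids, had the highest summed level of the 35 genes over the 12 libraries. It was at 1284, 1303 and 1242 CPM in untreated Null MEFs and 392, 395 and 391 CPM after etoposide. DKO MEFs gave values of 758, 757 and 792 CPM without and 153, 157 and 138 CPM with etoposide. The 4 groups were far apart, with DKO below Null MEFs at both conditions. Scd2 fell 3.25-fold in Null MEFs (log2 fold change -1.701 ± 0.04 SE, edgeR adjusted p = 7.44e-16) and 5.15-fold in DKO MEFs (log2 fold change -2.36 ± 0.04, adjusted p = 2.51e-17), with an interaction of -0.66 ± 0.06 (adjusted p = 3.74e-08). Between the genotypes the log2 fold change was -0.73 ± 0.04 (adjusted p = 5.05e-11) without and -1.39 ± 0.04 (adjusted p = 1.67e-14) with etoposide.

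Fads2, a desaturase of polyunsaturated fatty acids, was low in treated DKO MEFs. It was at 87.9, 83.8 and 85.2 CPM in untreated and 86.97, 85.8 and 84.1 CPM in treated Null MEFs, and at 84.2, 86.3 and 81.2 CPM in untreated and 40.7, 42.5 and 41.4 CPM in treated DKO MEFs. The treated DKO libraries lay apart at 40.7 to 42.5 CPM and the other 3 groups overlapped. In DKO MEFs the fall was 2.02-fold (log2 fold change -1.01 ± 0.04 SE, edgeR adjusted p = 1.25e-13). In Null MEFs the log2 fold change was near 0 (-0.00, adjusted p = 0.997). It passed the threshold as higher with library size alone (0.1675, adjusted p = 2.77e-04) and with the stricter filter (0.0873, adjusted p = 0.0206). The interaction was -1.01 ± 0.05 (SE, edgeR adjusted p = 4.83e-11), and after etoposide DKO MEFs were at -1.04 ± 0.04 (adjusted p = 1.21e-13) relative to Null MEFs.

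Scd1, a relative of Scd2, and Fads1, which acts beside Fads2, fell in both genotypes. Scd1 went from a mean of 393 to 177 CPM in Null and from 356 to 154 CPM in DKO MEFs, and Fads1 from 405 to 221 and from 348 to 163 CPM. The interaction of Fads1 was -0.22 ± 0.05 (adjusted p = 7.22e-04), and that of Scd1 did not pass the threshold. Per kb of summed exon length, Scd2 had the highest level of the 35 genes in untreated Null MEFs (234 CPM per kb), untreated DKO MEFs (141) and treated Null MEFs (71.9). In treated DKO MEFs the highest was Acly (43.4 CPM per kb), followed by Fads1 (33.9), Scd1 (31.4) and Cyp51 (30.9), with Scd2 at 27.4. Abcg1 was the lowest in every group on this scale, at 0.209 CPM per kb in untreated and 1.57 in treated Null MEFs.

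**Figure D4:**
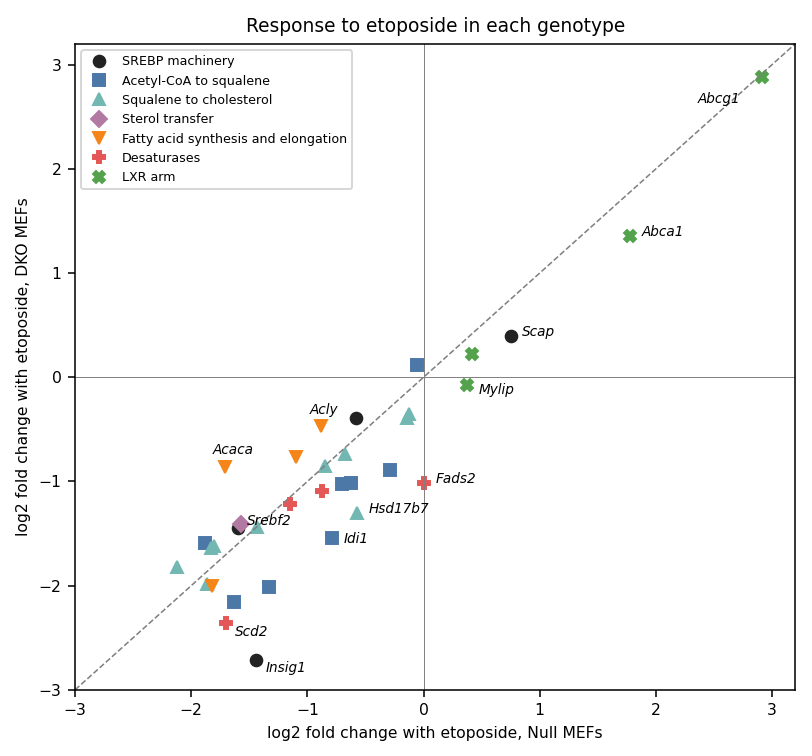
Each point is 1 of the 35 genes, with its log2 fold change with etoposide in Null MEFs on the x axis and in DKO MEFs on the y axis, marked by role, and the dashed line shows equal values. Insig1 and Fads2 lie furthest below the line and Acaca furthest above it, with interactions of -1.27, -1.01 and 0.85, and the DKO value of Abcg1 rests on 3 counts in untreated and 25 in treated libraries.

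Of the 4 genes of the LXR arm, 4 were higher with etoposide in Null MEFs (against 41.7% of all genes tested) and 3 in DKO MEFs (against 44.0%), where the call of Abcg1 rests on few counts. Nr1h2, which encodes LXR beta, was at 33.6, 35.3 and 35.1 CPM in untreated Null MEFs and 46.9, 45.7 and 46.5 CPM after etoposide, and at 50.3, 53.1 and 47.7 CPM without and 58.8, 60.6 and 57.3 CPM with etoposide in DKO MEFs. Treated libraries were above untreated ones in each genotype, and DKO libraries above Null libraries at each condition. The log2 fold change with etoposide was 0.42 ± 0.04 (SE, edgeR adjusted p = 1.11e-07) in Null and 0.22 ± 0.04 (adjusted p = 1.47e-04) in DKO MEFs, and between the genotypes 0.54 ± 0.04 (adjusted p = 6.28e-09) without and 0.34 ± 0.04 (adjusted p = 1.18e-06) with etoposide. The interaction was -0.20 ± 0.06 (adjusted p = 0.0104) and missed the threshold with library size alone, at -0.09.

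Abca1, which exports cholesterol to lipid-poor apolipoprotein, was at 14.4, 14.2 and 15.2 CPM in untreated Null MEFs and 56.8, 49.6 and 43.7 CPM after etoposide. In DKO MEFs it was at 7.57, 8.23 and 9.28 CPM without and 21.7, 22.6 and 19.8 CPM with etoposide. The 4 groups were apart, with treated Null highest and untreated DKO lowest. Abca1 rose 3.42-fold in Null MEFs (log2 fold change 1.77 ± 0.09 SE, edgeR adjusted p = 7.47e-12) and 2.56-fold in DKO MEFs (log2 fold change 1.36 ± 0.09, adjusted p = 8.94e-10), with an interaction of -0.42 ± 0.13 (adjusted p = 0.0101). DKO MEFs had 1.75-fold less without etoposide (log2 fold change -0.81 ± 0.09, adjusted p = 8.26e-07) and 2.34-fold less with it (log2 fold change -1.23 ± 0.09, adjusted p = 1.05e-09). Its promoter, printed above, holds 1 E-box and none of the other letters.

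Abcg1, a relative of Abca1 that exports cholesterol to mature lipoprotein particles, was almost silent in DKO MEFs. The counts were 111, 101 and 107 in untreated Null libraries and 911, 926 and 823 in treated ones. In DKO MEFs they were 1, 2 and 0 without and 7, 5 and 13 with etoposide. Every Null library was far above every DKO library. In CPM the Null libraries were at 1.36, 1.55 and 1.65 without and 11.1, 11.2 and 12.002 with etoposide, a 7.53-fold rise (log2 fold change 2.91 ± 0.15 SE, edgeR adjusted p = 8.78e-12) and the largest of the 35 genes. For DKO MEFs the ratio of summed counts per scaled library size was used, with an exact 95% interval that covers counting error only, since reads without molecular identifiers are not independent molecules. It was 8.14 for treated over untreated DKO MEFs (interval 2.48 to 42.1, 25 against 3 counts). The fitted log2 fold change, 2.88, was 2.46 to 3.53 with 1 library left out. It was 1.83 to 3.53 over the 13 alternatives in which Abcg1 was tested. The fit of the DKO libraries alone is not among them, since Abcg1 was not tested there. Null over DKO gave 109.8 without etoposide (interval 37.2 to 535, 319 against 3 counts) and 102 with it (interval 68.9 to 158, 2660 against 25 counts). The fitted log2 fold change between treated genotypes was -6.65, and the interval of the count ratio is used for its error. Abcg1 passed the filter on low counts through its Null libraries, so this value is given as a description.

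Mylip, a ligase that marks lipoprotein receptors for breakdown, was at 10.6, 10.2 and 10.8 CPM in untreated Null MEFs and 13.1, 12.5 and 15.5 CPM after etoposide. The DKO libraries had 15.6, 15.2 and 13.6 CPM without and 13.9, 13.6 and 14.5 CPM with etoposide. Treated Null libraries were above untreated ones, and the DKO libraries of both conditions overlapped. The log2 fold change was 0.38 ± 0.08 (SE, edgeR adjusted p = 5.27e-04) in Null MEFs, did not pass the threshold in DKO MEFs, and had an interaction of -0.45 ± 0.12 (adjusted p = 0.00305). Untreated DKO MEFs had more Mylip than untreated Null MEFs (log2 fold change 0.49 ± 0.08, adjusted p = 4.98e-05).

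**Figure D5:**
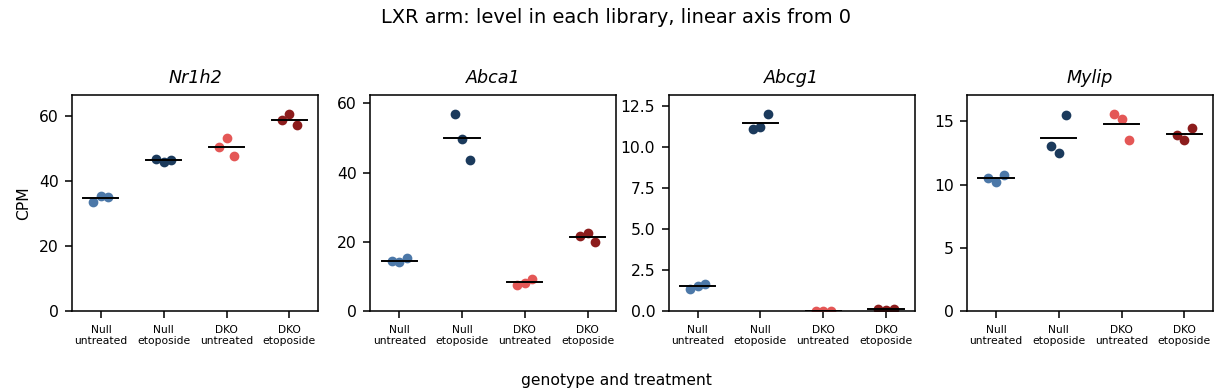
Points are the levels (CPM, axis from 0) of the LXR genes Nr1h2, Abca1, Abcg1 and Mylip in the 3 libraries of each group. Abcg1 is at 11.1, 11.2 and 12.002 CPM in treated Null libraries and near 0 in all 6 DKO libraries, while Abca1 rises in both genotypes.

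A further 42 genes of these pathways, which process or degrade SREBPs, partner or follow LXRs, handle cholesterol, lead to isoprenoids or activate and elongate fatty acids, were all tested. They too were listed with earlier results of these data known, and their shares are descriptions. In Null MEFs 11 of the 42 (26.2%, against 41.7% of all genes tested) were higher with etoposide and 23 (54.8%, against 36.8%) were lower, with a median log2 fold change of -0.40 beside 0.07 for all genes tested. In DKO MEFs 13 (31.0%, against 44.0%) were higher and 22 (52.4%, against 31.3%) lower, with medians of -0.18 and 0.14. DKO against Null MEFs gave 17 higher (40.5%, against 33.4%) and 9 lower (21.4%, against 34.1%) without etoposide, with medians of 0.05 and -0.02. After it 26 were higher (61.9%, against 36.9%) and 11 lower (26.2%, against 35.2%), with medians of 0.19 and -0.0039. The interaction was above 0 for 18 of them (42.9%, against 29.9%) and below 0 for 14 (33.3%, against 24.7%), with medians of 0.02 and 0.05. Among 8 genes of SREBP processing and turnover, 7 were lower with etoposide in Null MEFs (against 36.8% of all genes tested), and in DKO MEFs 4 were lower (against 31.3%) and 2 higher (against 44.0%). Erlin1, a membrane protein of the endoplasmic reticulum that binds cholesterol, went down in Null MEFs, from a mean of 108 to 72.6 CPM, and up in DKO MEFs, from 61.4 to 91.3 CPM, with an interaction of 1.15 ± 0.04 (SE, edgeR adjusted p = 2.28e-12). Mbtps2, a protease that cuts SREBPs, was higher in DKO than in Null MEFs after etoposide (log2 fold change 0.91 ± 0.07, adjusted p = 3.93e-09), and it shares 28.4% of its exon length with Yy2 on the same strand.

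Of 6 further LXR partners and targets, 4 were higher (against 41.7% of all genes tested) and 0 lower with etoposide in Null MEFs, with a median log2 fold change of 0.22, while in DKO MEFs 2 were higher (against 44.0%) and 3 lower (against 31.3%), with a median of -0.32, beside medians of 0.07 and 0.14 over all genes tested. Among them Pltp (phospholipid transfer protein) was at 18.7, 15.9 and 15.3 CPM in untreated Null MEFs and 116, 111 and 120.4 CPM after etoposide. Its levels in DKO MEFs were 7.73, 8.34 and 8.24 CPM without and 16.8, 15.99 and 14.9 CPM with etoposide. Treated Null libraries stood far above the rest. Pltp rose 6.94-fold in Null (log2 fold change 2.795 ± 0.07 SE, edgeR adjusted p = 7.23e-16) and 1.96-fold in DKO MEFs (log2 fold change 0.97 ± 0.07, adjusted p = 3.24e-09), with an interaction of -1.83 ± 0.10 (adjusted p = 1.35e-10). Ctsa overlaps 19.3% of its exon length on the opposite strand. Arl4c, a small GTPase and LXR target, rose in Null MEFs from a mean of 98.3 to 169 CPM and fell in DKO MEFs from 172 to 89.2 CPM, with an interaction of -1.73 ± 0.05 (adjusted p = 1.82e-13). Of the genes that handle cholesterol, Soat1, which esterifies it, was 2.96-fold lower in untreated DKO than in untreated Null MEFs (log2 fold change -1.57 ± 0.04, adjusted p = 5.30e-15). Osbp, an oxysterol-binding transfer protein, fell in both genotypes, to means of 102 CPM in Null and 79.4 CPM in DKO MEFs from 147 and 199 CPM.

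Lpin1, a phosphatidate phosphatase of triglyceride synthesis, was at 15.99, 15.1 and 14.2 CPM in untreated Null MEFs and 76.997, 73.7 and 77.001 CPM after etoposide. DKO MEFs gave values of 23.3, 21.8 and 20.5 CPM without and 21.7, 21.03 and 18.9 CPM with etoposide. The treated Null libraries stood apart, and the DKO libraries of both conditions overlapped. Lpin1 rose 5.02-fold in Null MEFs (log2 fold change 2.33 ± 0.06 SE, edgeR adjusted p = 2.77e-15), and its interaction of -2.42 ± 0.09 (adjusted p = 1.22e-12) was the lowest of the 42 genes. Acacb, the mitochondrial relative of Acaca, rose in both genotypes, 3.001-fold in Null and 2.17-fold in DKO MEFs. Elovl7, an elongase, fell 2.33-fold and 2.54-fold, and was 2.39-fold higher in DKO MEFs without and 2.19-fold higher with etoposide. Elovl5, an elongase of polyunsaturated fatty acids, was 1.902-fold higher in treated DKO MEFs. Me1 (malic enzyme, a source of NADPH) fell 2.14-fold in Null and 2.11-fold in DKO MEFs, and Acsl4, an acyl-CoA synthetase, fell 2.06-fold in Null MEFs, with DKO means of 255 CPM without and 126 CPM with etoposide.

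Mid1ip1, which activates acetyl-CoA carboxylase, was 1.64-fold higher in untreated DKO MEFs, and 25.5% of its exon length overlaps Gm14493 on the opposite strand. Acss2, which makes acetyl-CoA from acetate, was 2.48-fold lower in treated DKO than in treated Null MEFs. Acsl1, another acyl-CoA synthetase, had an interaction of 0.94 ± 0.06 (adjusted p = 1.99e-09), with means of 44.9 and 26.2 CPM in Null MEFs without and with etoposide and 25.9 and 29.003 CPM in DKO MEFs. Gm45244 on the opposite strand shares 9.91% of its exon length. Pdss2, a subunit of the synthase for the side chain of ubiquinone, had an interaction of 0.99 ± 0.12 (adjusted p = 2.96e-06), with means of 15.9 and 9.33 CPM in Null and 13.3 and 15.6 CPM in DKO MEFs. Further exon overlaps of genes named here, as a share of the exon length, are 3.53% for Lss (4930483K19Rik), 0.529% for Elovl6 (Gm35986), 0.78% for Me1 (A330041J22Rik) and 1.94, 3.30 and 3.89% for Acss2 (Ggt7, Acss2os and Gss) on the opposite strand, and 1.17% for Srebf1 (Mir6922), 1.12% for Scd2 (Mir5114) and 0.553% for Pdss2 (Gm47856) on the same strand.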

How the data were processed

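The authors deposited 1 table of raw counts of read pairs per gene, from stranded, paired-end libraries of RNA depleted of ribosomal RNA. The methods of the study name HISAT2 and HTSeq, and the submitters' notes name HISAT2, featureCounts and build mm10. Versions and the strand setting are not given. The 5 summary lines were left out (reads outside features, 20.2 to 27.3%, aligned at several places, 15.9 to 20.5%, or ambiguous, 0.428 to 0.513%), and 2 duplicated symbols written like dates were kept. In R 4.3.3, edgeR 4.0.16 was run with filterByExpr, TMM factors (0.884 to 1.09) and glmQLFit in one model of 12 libraries and 4 groups without a block, with Benjamini-Hochberg adjustment over 15220 genes in each of 5 comparisons and a threshold of 0.05. The alternatives were DESeq2 1.42.0, its size factors in edgeR, library size alone, limma-trend (limma 3.58.1, prior count 2), which the study used, no filter, a stricter filter (mean of at least 1 CPM), a replicate block, only the 6 libraries compared, and each library left out. The SE given with a log2 fold change was derived from the test, as its absolute value divided by the square root of the F statistic. Replicates differed by more than sampling noise (chi-square over its degrees of freedom 10.72 to 21.96). Exon lengths and overlaps come from a GENCODE reference annotation, with all exons of a gene joined. The version used for counting is not given, so lengths and overlaps may differ from those in the counting. Values in every library are given for the SREBP and LXR genes and, per comparison, for the 4 genes that changed most in each direction among those called with a mean of 1 CPM or more. Other pathway genes were named in the same way, 3 in each direction, most of them with means or fold changes alone. The members and lists were chosen with earlier results of these data known.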

Additional observations from a re-analysis of the deposited data

Results flagged for a closer look

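For 28 of the 35 genes the response to etoposide differed between the genotypes by the interaction term of the edgeR model, the log2 fold change in DKO MEFs minus that in Null MEFs, at an adjusted p under 0.05. Among all genes tested 29.9% had such a term above 0 and 24.7% below 0. With DESeq2, 4 of the 35 genes had a term above 0 and 20 below 0. The terms of Mvd, Stard4, Srebf1, Fdps and Dhcr7 each missed the threshold under at least 9 of 19 alternatives.

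For the SREBP machinery the terms were 0.18 for Srebf1, -0.35 for Scap and -1.27 for Insig1. From acetyl-CoA to squalene they were -0.60 for Acat2, -0.52 for Hmgcs1, -0.39 for Mvk, -0.32 for Pmvk, -0.76 for Idi1 and -0.68 for Fdft1, and above 0 for Mvd at 0.18 and Fdps at 0.29. From squalene to cholesterol and for sterol transfer they were above 0 for Sqle at 0.30, Lss at 0.19, Cyp51 at 0.19 and Stard4 at 0.16, and below 0 for Hsd17b7 at -0.73, Ebp at -0.25 and Dhcr7 at -0.23.

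Among the fatty acid genes the term was 0.41 for Acly, 0.85 for Acaca and 0.33 for Fasn, against -0.18 for Elovl6, -0.66 for Scd2, -0.22 for Fads1 and -1.01 for Fads2. In the LXR arm it was -0.20 for Nr1h2, -0.42 for Abca1 and -0.45 for Mylip.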

How the results depend on the processing

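Log2 fold changes of single genes were computed for 191 results, 2848 values under the alternatives in all. Of these values 2741 kept their direction and their side of the threshold, 92 no longer passed it, 6 newly passed it and 9 changed sign, of which 2, both of Fads2, passed it with the new sign, and 22 results had at least 1 such change. For Ebp with etoposide in Null MEFs the log2 fold change was 0.0231 with library size alone. For Fads2 in the same comparison, not called in the report, it was 0.1675 with library size alone, 0.0452 with DESeq2 and 0.0453 with its size factors in edgeR, as well as 0.0001 with limma-trend, 0.0873 with the stricter filter, 0.0061 with only the 6 libraries compared, and -0.0259 to 0.0116 with 1 library left out. The number of all genes lower with etoposide in DKO MEFs was 2975 with library size alone. The number of the 35 genes higher with etoposide in DKO MEFs was 3 with only the 6 libraries compared. The number with an interaction above 0 was 4 with DESeq2, 4 with its size factors in edgeR, 6 with the stricter filter and 5 to 9 with 1 library left out, with 5 reached without replicate 2 of untreated DKO MEFs. The cause was not tested.

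Replicate numbers gave no pairing to rely on: deviations of libraries with the same number correlated at -0.032 to 0.0429 across genes. With the replicate block the genes called higher and lower numbered 6300 and 5573 for etoposide in Null MEFs, and the Dhcr7 interaction, at -0.23, and the Hsd17b7 difference after etoposide, at -0.10, no longer passed. With library size alone the interactions of Elovl6 and Nr1h2 and the fall of Dhcr7 in DKO MEFs no longer passed. The median log2 fold change of the 35 genes stayed between -0.9015 and -0.7059 with etoposide in Null and between -1.0888 and -0.7515 in DKO MEFs. For DKO against Null MEFs it lay between -0.264 and -0.1236 without and between -0.1854 and -0.1039 with etoposide. For the interaction it lay between -0.248 and -0.0774.

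The calls lost under the largest share of alternatives were the Mvd interaction (13 of 19), the Mvd rise in DKO MEFs (9 of 14) and the interactions of Stard4 (11 of 19), Srebf1 and Fdps (10 of 19 each) and Dhcr7 (9 of 19). Differences that missed the threshold were followed under the alternatives only where their log2 fold change is given in the text. Depth limits Abcg1 in untreated DKO MEFs, with 3 counts over 3 libraries. The table has 1 count per gene and library, so transcripts of a gene are not separated. With 1 line per genotype and 1 time point, other lines and times are not covered.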
